A study of Mus musculus with 3 samples.

Results

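Carriers for sugars, monocarboxylates, nucleosides, fatty acids and organic ions were read in 3 kinds of stromal cell from mesenteric lymph nodes of wild-type C57BL/6NCrl mice, sorted after collagenase digestion from cells without CD45 and CD24. The members were the genes whose names on the array place them in the SLC2, SLC5, SLC16, SLC22, SLC27, SLC28, SLC29 or SLCO family, which gave 84 of 28084 gene names, measured by 127 probes. Of several probes to a gene, that of highest mean log2 signal over the 3 arrays was used. The populations were fibroblastic reticular cells (FRC; gp38 positive and CD31 negative), which build the fibre network of the node, lymphatic endothelial cells (LEC; both antigens), the lining of the lymph sinuses, and endothelial cells of blood vessels (BEC; CD31 positive and gp38 negative). The labels name no treatment, age or sex, give a mean sort purity of 88% ± 1.5 over the sorted subsets, and give no number of mice or sorts behind each RNA. Each population had 1 single-colour array, all on 1 slide, so there were no replicates, no test of a difference was made, and every value below describes these 3 RNA samples.

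These families move small molecules across membranes. SLC2 proteins (GLUTs) let hexoses run down their gradient, SLC5 proteins couple solutes to sodium, and SLC16 proteins carry lactate, pyruvate, thyroid hormone or creatine. SLC22 proteins carry organic cations, anions and carnitine, SLC27 proteins take up and activate fatty acids, SLC28 and SLC29 proteins carry nucleosides with sodium or by facilitated diffusion, and SLCO proteins carry organic anions such as hormone conjugates and prostaglandins. In endothelium such carriers set which nutrients and hormones pass the vessel wall, and nucleoside carriers also clear extracellular adenosine.

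A level below is the log2 signal of a probe minus the 75th percentile of its array, so a fold compares arrays for 1 probe, and levels of different genes are not compared as amounts of RNA. A gene was called higher at a 4-fold difference between arrays, provided its own probe was well above background on the brighter one. The lowest level that the scanner software marked as well above background was -4.34 (FRC), -4.20 (LEC) or -4.38 (BEC). Where no probe of a gene carried that mark on the dimmer array, a bound was taken against the own level of the probe there or that lowest level, whichever was higher, and the fold is written with "at least". The size of such a bound depended on the processing, as given below. Replicate spots of 1 probe had a median SD of 0.0537 to 0.0576 (log2), an error of spotting that leaves out animals and sorts. The number of arrays limits the precision. In RNA from sorted cells, fewer cells of a type and less RNA per cell cannot be told apart.

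Of the gate genes, Pecam1, which encodes CD31, had levels of -4.06, 2.33 and 4.02 for FRC, LEC and BEC, and Pdpn, which encodes gp38, of -0.83, -1.18 and -3.81. Cd24a, whose product was gated out, was well above background on every array, at 1.61, 3.40 and 3.89, and 4.86-fold higher in BEC than FRC. All 8 FRC markers were called for FRC against either endothelium, all 6 LEC markers reached 4-fold for LEC over FRC, and all 7 BEC markers reached 4-fold for BEC over FRC. Each endothelium also carried the markers of the other over FRC, with all 6 LEC markers called for BEC and all 7 BEC markers called for LEC. Between the endothelia 5 of the 6 LEC markers were called for LEC and 4 of the 7 BEC markers for BEC. Other cells also differed between the arrays. The summed linear level of 7 erythroid and platelet markers, as a multiple of the 75th percentile, was 19.7 (FRC), 95.3 (LEC) and 230 (BEC), and that of 7 adipocyte markers was 3.12, 5.60 and 22.7. Within the adipocyte list Cfd made the largest contribution to the BEC sum, at a level of 3.98, Plin1 went the other way, 12.5-fold higher in FRC than BEC and at least 15.7-fold higher than in LEC, and Lep was not well above background on any array. The sum of 9 mesothelial and epithelial markers was 13.7 (FRC), 6.20 (LEC) and 3.22 (BEC), with Wt1 well above background in FRC alone. That of 14 leukocyte markers was 9.55, 14.5 and 8.66, with Itgam not well above background on any array, although Ptprc, which encodes CD45, was 6.04-fold higher in BEC than FRC. Lyz2 made the largest contribution to the leukocyte sum on each array, and Cd79a was 7.70-fold higher in BEC than FRC. The sum of 10 pericyte and smooth muscle markers was 118 (FRC), 71.6 (LEC) and 98.8 (BEC), with the largest contributions from Acta2 and Tagln. Its members went different ways. Between BEC and FRC 1 was called for BEC, Cnn1 at 8.13-fold. The 4 called for FRC were Abcc9 (17.7-fold), Kcnj8 (6.97-fold), Rgs5 (4.57-fold) and Des (4.02-fold). The part of these cells in the results below was not tested.

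Of the 84 carriers, 59 (70.2%) had a probe well above background on at least 1 array and 44 (52.4%) on all 3, against 68.2% and 55.7% of all gene names. The remaining 25 carriers stayed dim on every array, at levels from -6.68 to -4.52. They included the intestinal and renal glucose carriers Slc5a1 and Slc5a2, the iodide carrier Slc5a5, the choline carrier Slc5a7, the fructose carrier Slc2a5 and the liver carriers Slc27a5 and Slco1b2. Dim members made up 8 of 15 in SLCO and 7 of 13 in SLC5, whereas 10 of 11 SLC2 members were well above background on all 3 arrays. Slc22a3, Slc22a7, Slc16a10 and Slco1c1 passed background on the FRC array only, Slc5a9 on the LEC array only and Slc5a11 on the BEC array only.

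Of 58 carriers compared between LEC and FRC, 6 (10.3%) were called for LEC, where 4.89% of all genes compared were called that way, and 5 (8.62%) for FRC, against 5.93% of all genes. In the BEC and FRC comparison 4 of 58 carriers (6.90%) were higher in BEC, against 6.58% of all genes, and 7 (12.1%) were higher in FRC, against 7.57%. Dividing each array's log2 values by the slope of its spike-in controls gave 9 and 9. The calls over all genes rose as well, from 1240 and 1426 to 1680 and 1624 of 18833. Between the endothelia 2 of 55 carriers (3.64%) were higher in LEC, against 3.39% of all genes, and 4 (7.27%) were higher in BEC, against 3.38%. Slope division gave 5 and 4 there, and the authors' quantile-normalized values gave 3 and 3. Over all 18325 genes they gave 772 and 672, and 614 and 618, against 622 and 620 as reported. In either direction 10.8%, 14.2% and 6.78% of all genes were called in these comparisons. With 2 to 7 carriers per count, nothing is read from the shares, and the families are described by their single members. The median log2 difference of the carriers in the order of these comparisons was 0.01, -0.13 and 0.03 (the last as LEC minus BEC, the others minus FRC), and that of all genes was 0.02, 0.09 and -0.07. In all, 17 carriers were called in at least 1 comparison, in 28 calls, of which 17 were bounds. The share of all genes called in at least 1 comparison was not taken, so nothing is read from the count of carriers. The comparisons share arrays, so the calls on 1 gene are not independent of each other.

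**Figure D1:**
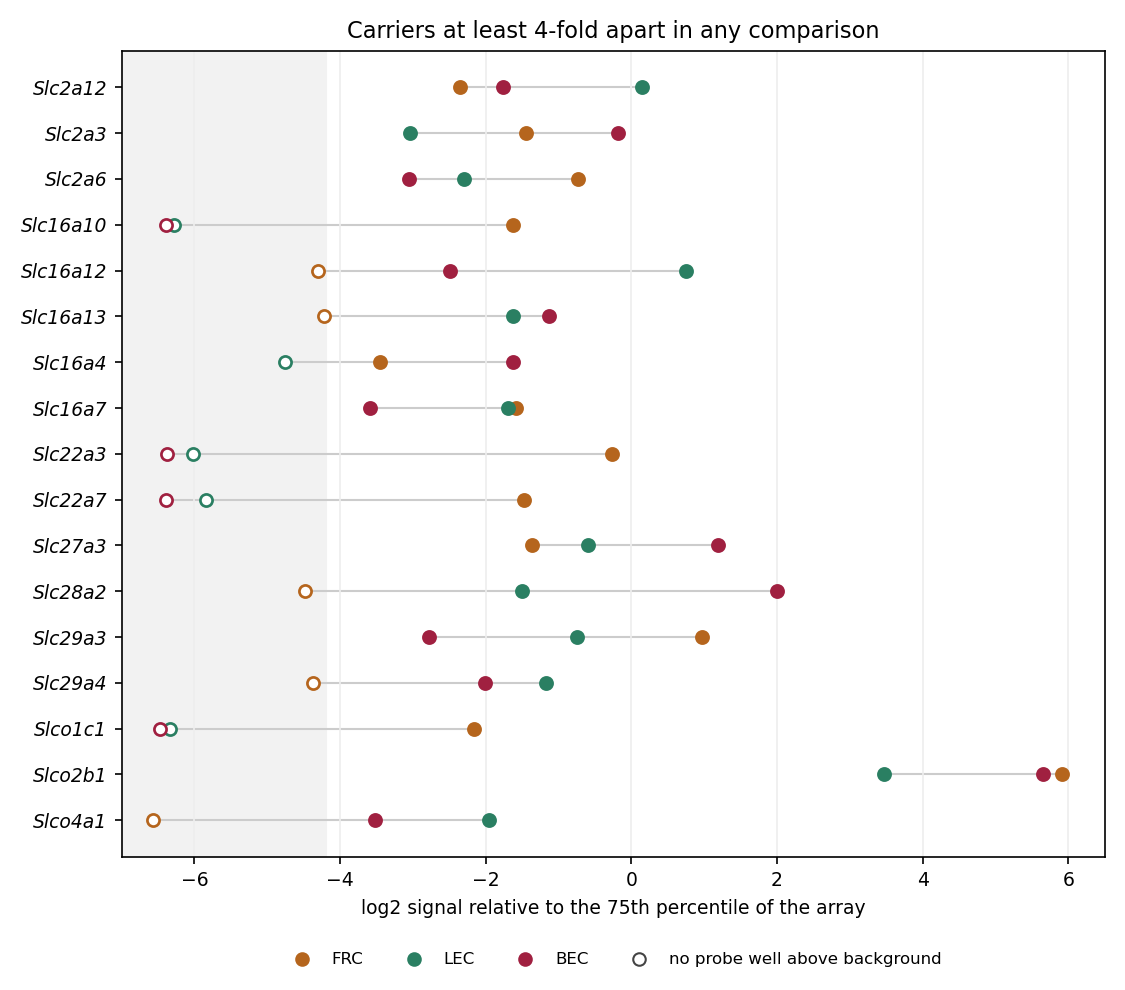
Levels of the 17 carriers called at 4-fold in at least 1 comparison, as log2 signal relative to the 75th percentile of the array (horizontal axis), with 1 point per array and family order from SLC2 to SLCO. Open points mark arrays on which no probe of the gene was well above background, and the shaded zone lies below -4.20, the highest of the arrays' lowest levels well above background. Slc28a2 spans from its open FRC point to 1.995 in BEC, and Slc22a3, Slc22a7, Slc16a10 and Slco1c1 are filled for FRC only.

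Among the nucleoside carriers, Slc28a2 was called in all 3 comparisons. It encodes CNT2, which takes up purine nucleosides, adenosine among them, together with sodium. Its level was -4.48 and not well above background in FRC, -1.50 in LEC and 1.995 in BEC. Over FRC the bounds were at least 80.6-fold for BEC and at least 7.15-fold for LEC, and BEC was 11.3-fold above LEC. The single probe lay on chromosome 2 at 122286445 to 122286504 of mouse build mm9, the build of all probe positions here, for which no annotation of exons or UTRs was used. Slc28a3, which encodes the broad carrier CNT3, stayed within 2-fold, at -1.81, -1.41 and -2.14 in FRC, LEC and BEC. Its other probe was dim on every array.

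The facilitated nucleoside carriers split by member. Slc29a3, which encodes the lysosomal nucleoside carrier ENT3, read 0.97 (FRC), -0.74 (LEC) and -2.79 (BEC), and FRC was 3.28-fold above LEC. It was 13.5-fold higher in FRC than BEC and 4.12-fold higher in LEC than BEC. Its other probe well above background in FRC gave -1.31 (log2) for BEC minus FRC, but it was dim on both endothelial arrays, and averaging probes brought the LEC minus BEC difference to 0.94, below the 4-fold line. Slc29a4, which encodes the plasma membrane monoamine transporter, was not well above background in FRC (-4.37) and was at -1.18 in LEC and -2.01 in BEC, at least 8.95-fold and at least 5.02-fold higher than in FRC. Slc29a1, which encodes ENT1, the main equilibrative carrier of adenosine at the cell surface and a protein of red cells, was at 3.65, 3.38 and 2.93 in FRC, LEC and BEC, within 2-fold throughout.

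As context for genes read so differently in FRC and endothelium, the 250 bases before the start of Slc28a2 and Slc29a4, dim in FRC, and of Slc22a3 and Slc16a10, well above background in FRC alone, are printed from RefSeq (build GRCm38.p6), 5′ to 3′ on the strand of the gene. Capitals mark CCGGAA (an ETS-type core), ACAATG (a SOX-type core) or TATAAA on either strand.
Slc28a2 (chr2:122426185-122426434, plus strand): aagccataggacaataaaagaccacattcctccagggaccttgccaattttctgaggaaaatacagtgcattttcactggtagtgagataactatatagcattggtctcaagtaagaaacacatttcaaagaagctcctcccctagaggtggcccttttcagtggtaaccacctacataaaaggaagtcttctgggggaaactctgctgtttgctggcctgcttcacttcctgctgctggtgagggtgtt
Slc29a4 (chr5:142701851-142702100, plus strand): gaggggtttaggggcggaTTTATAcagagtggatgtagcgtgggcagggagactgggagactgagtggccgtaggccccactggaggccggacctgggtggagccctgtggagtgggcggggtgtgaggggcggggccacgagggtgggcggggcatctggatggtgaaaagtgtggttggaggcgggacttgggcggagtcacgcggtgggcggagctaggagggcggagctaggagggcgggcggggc
Slc22a3 (chr17:12507705-12507954, minus strand): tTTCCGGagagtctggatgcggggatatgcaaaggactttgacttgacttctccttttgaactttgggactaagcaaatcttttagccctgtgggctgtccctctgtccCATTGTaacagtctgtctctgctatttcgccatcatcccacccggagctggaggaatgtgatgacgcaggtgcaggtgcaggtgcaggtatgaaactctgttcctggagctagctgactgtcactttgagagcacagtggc
Slc16a10 (chr10:40142255-40142504, minus strand): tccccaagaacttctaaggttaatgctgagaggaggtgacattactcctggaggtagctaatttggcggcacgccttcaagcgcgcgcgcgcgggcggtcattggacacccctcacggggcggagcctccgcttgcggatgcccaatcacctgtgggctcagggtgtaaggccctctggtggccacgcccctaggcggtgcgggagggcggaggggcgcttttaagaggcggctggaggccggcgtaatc

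The Slc28a2 window held no CG dinucleotide and 45.2% G and C, the Slc22a3 window 5 and 51.2%, the Slc29a4 window 16 and 68.8%, and the Slc16a10 window 21 and 64.4%, against medians of 6 and 52.0% over 27025 RefSeq promoters. Slc22a3 held 1 match to CCGGAA and 1 to ACAATG, and Slc29a4 held 1 to TATAAA, with no match in the other windows. In windows of the same length, CCGGAA was present in 12.2% of all promoters, ACAATG in 11.0% and TATAAA in 13.0%, and in 7, 8 and 8 of the 67 carrier promoters in the table. A match is a string of letters and no evidence of binding.

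Among the monocarboxylate carriers (SLC16), the lactate carrier genes Slc16a1 and Slc16a3 differed by less than 2-fold in every comparison, and 5 other members were called. Slc16a1, which encodes the lactate and pyruvate carrier MCT1, read 2.98 (FRC), 3.45 (LEC) and 2.80 (BEC). Slc16a3, which encodes MCT4, the lactate exporter of glycolytic cells, was at 0.15, 0.19 and 0.18, with a BEC minus FRC difference of 0.04. Slc16a3 and the further carriers named in this and later paragraphs that were neither called nor among the brightest 2 of their family were chosen after their values were seen. Slc16a7, which encodes the high-affinity carrier MCT2, read -1.58 (FRC), -1.70 (LEC) and -3.59 (BEC), 4.01-fold higher in FRC than BEC. That value sat on the 4-fold line and fell short of it under 3 of 6 alternatives.

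Slc16a12, which encodes a creatine carrier, was called for LEC against both other arrays. It was not well above background in FRC (-4.31) and read 0.75 in LEC and -2.48 in BEC. LEC was at least 33.3-fold above FRC and 9.42-fold above BEC, and both calls held under all 6 alternatives. Its probe lay on chromosome 19 at 34743639 to 34743698. Slc16a13 was not well above background in FRC (-4.22) and was at -1.63 in LEC and -1.13 in BEC, at least 6.03-fold and at least 8.50-fold higher. Its RefSeq neighbour on chromosome 11, Slc16a11, was at -2.68, -2.47 and -0.88, and so 3.47-fold higher in BEC than FRC and 1.16-fold higher in LEC. Slc16a4 was at -3.45 in FRC, -4.76 in LEC (not well above background) and -1.63 in BEC, at least 5.93-fold higher in BEC than LEC.

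Carriers of thyroid hormone are found in SLC16 and SLCO. Slc16a10, which encodes TAT1, a carrier of aromatic amino acids and thyroid hormone, was at -1.63 in FRC and not well above background in LEC (-6.28) or BEC (-6.39), so FRC was at least 5.93-fold and at least 6.72-fold higher. Its other 2 probes were dim on every array. Slco1c1, which encodes the thyroxine carrier OATP1C1, known from brain endothelium, was at -2.17 in FRC and not well above background in LEC (-6.34) or BEC (-6.47), giving bounds of at least 4.08-fold and at least 4.63-fold.

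The probes of Slco1c1 and Slc27a3 are the only ones among the called carriers whose mapped span is longer than the probe, as for a probe across a splice junction, and their 60 bases are shown 5′ to 3′ as in the deposited files, with no base marked.
Slco1c1: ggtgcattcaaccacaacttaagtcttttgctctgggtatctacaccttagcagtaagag
Slc27a3: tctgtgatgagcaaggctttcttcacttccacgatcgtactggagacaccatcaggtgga
The Slco1c1 probe spans chromosome 6 from 141511731 to 141513094 and the Slc27a3 probe chromosome 3 from 90190495 to 90190724 (mm9). Their G and C content was 43.3% and 50.0%.

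**Figure D2:**
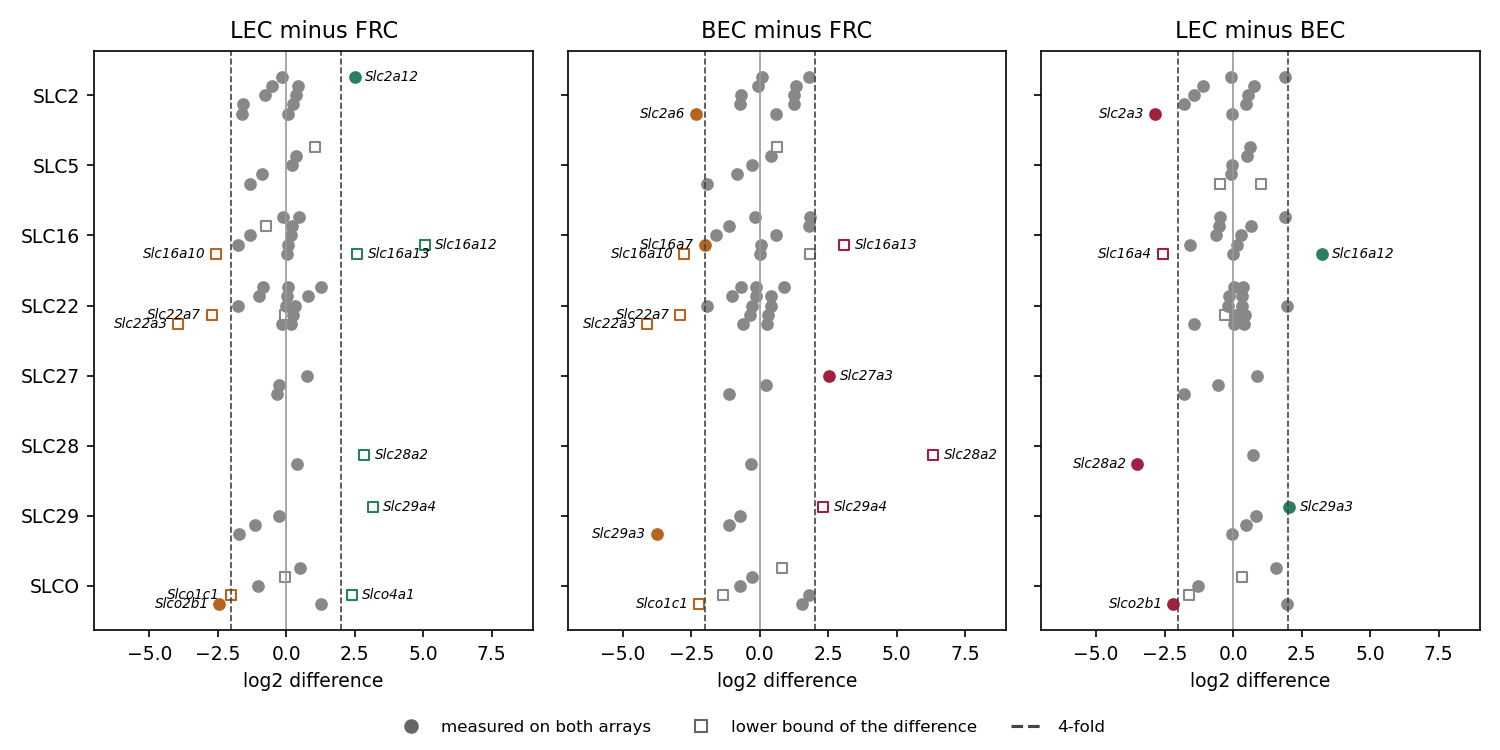
Log2 differences of all carriers compared, 1 panel per comparison, by family (vertical axis), with a dashed line at 4-fold on either side of 0. Circles were measured on both arrays, open squares are lower bounds, and coloured labelled points passed 4-fold in the colour of the brighter population. Most carriers lie between the dashed lines, no SLC5 carrier passes them, and Slc28a2 is drawn at 6.33 for BEC minus FRC, a lower bound.

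Among the hexose carriers (SLC2), all 3 called members had moderate sizes and each was highest in a different population. Slc2a12, which encodes the glucose carrier GLUT12, read -2.35 (FRC), 0.14 (LEC) and -1.76 (BEC), 5.63-fold higher in LEC than FRC and 3.74-fold higher in LEC than BEC. Slc2a3, which encodes the high-affinity glucose carrier GLUT3, was at -1.44, -3.04 and -0.18, 7.27-fold higher in BEC than LEC. Its other probes were dim on every array. Slc2a6, which encodes the lysosomal carrier GLUT6, was at -0.73, -2.30 and -3.06, 5.02-fold higher in FRC than BEC.

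Slc2a1, which encodes GLUT1, the basal glucose carrier of many cells, of brain vessels and of red cells, read 3.85 (FRC), 4.10 (LEC) and 5.18 (BEC), 2.52-fold higher in BEC than FRC and 2.12-fold higher than in LEC. Slc2a4, which encodes the insulin-responsive carrier GLUT4 of fat and muscle, was at -1.13, -1.65 and 0.13, 2.40-fold higher in BEC than FRC and 3.43-fold higher than in LEC. Neither reached 4-fold. BEC was also the array with the highest sums of the red cell and adipocyte markers, the latter mostly Cfd, with Plin1 highest in FRC. The part of such cells in Slc2a1 and Slc2a4 was not tested. Slc2a9, which encodes a urate carrier, was at -3.84, -3.49 and -2.04, and 2 further probes of it were well above background in BEC alone. Slc2a8, an intracellular hexose carrier gene, was at 1.00, 0.23 and 0.30. The median difference of the family was -0.05 for LEC and 0.34 for BEC, each minus FRC, and -0.06 between LEC and BEC.

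No sodium-coupled carrier (SLC5) was called in any comparison, by measured values or by bounds. Slc5a3, which encodes the myo-inositol carrier that answers osmotic stress, read 0.82 (FRC), -0.50 (LEC) and -1.10 (BEC), 2.49-fold and 3.79-fold higher in FRC. Slc5a6, which encodes the carrier of biotin and pantothenate, was at 0.43, -0.47 and -0.41. Differences over the family ran from -1.92 to 1.03, the latter a lower bound, for Slc5a9 in LEC minus FRC. Its probe read -3.31 in LEC and -6.41 in FRC, the last not well above background, so the difference may be larger. Slc5a11, well above background in BEC alone, was also compared by bounds.

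Among the organic ion carriers (SLC22), Slc22a3 stood out on the FRC array. It encodes OCT3, which carries monoamines and other organic cations, and read -0.26 (FRC), -6.03 (LEC) and -6.37 (BEC), with neither endothelial value well above background. FRC was at least 15.3-fold higher than LEC and at least 17.3-fold higher than BEC. Under normexp background correction these bounds shrank to -1.87 (log2, LEC minus FRC), short of 4-fold, and -2.395 (BEC minus FRC). Slc22a2, its RefSeq neighbour on chromosome 17, was not well above background on any array. Slc22a7, which encodes the organic anion carrier OAT2, was at -1.47 in FRC and dim in LEC (-5.85) and BEC (-6.39), and FRC was at least 6.63-fold above LEC and at least 7.51-fold above BEC. The FRC array also had the highest sums of the mesothelial and epithelial markers (13.7, against 6.20 in LEC and 3.22 in BEC) and of the pericyte and smooth muscle markers (118, 71.6 and 98.8). The part of such cells in Slc22a3 and Slc22a7 was not tested.

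A group of carnitine carrier genes lies together on chromosome 11. Slc22a5, which encodes OCTN2, the main carnitine carrier, read 0.30 (FRC), 0.34 (LEC) and 0.02 (BEC). Slc22a4, which encodes the ergothioneine carrier OCTN1, was at 0.50, 0.55 and -1.43, lower in BEC by 3.81-fold against FRC and 3.93-fold against LEC, just under the 4-fold line. Slc22a21, the gene between them, was at -1.24, -2.23 and -2.26. Slc22a23, a member without a settled substrate, was at 1.02, -0.76 and 0.67, and Slc22a12, the gene of the renal urate exchanger URAT1, read nearly the same on every array, at 2.87, 2.86 and 2.74. Slc22a8, an organic anion carrier gene of kidney and brain vessels, was at -1.20, -0.88 and -0.91, with its other probes dim on every array.

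Of the fatty acid transport proteins (SLC27), Slc27a3 was called. It encodes an acyl-CoA synthetase of the family and read -1.36 (FRC), -0.59 (LEC) and 1.18 (BEC), 5.83-fold higher in BEC than FRC and 3.43-fold higher than in LEC. The BEC minus FRC call held under all 6 alternatives. Slc27a4 was at -0.60, -0.86 and -1.72. Slc27a1 was at 1.09, 0.76 and 1.32 by its chosen probe, whereas its other probe read 1.39, -0.64 and -0.36, with differences of -2.02 for LEC minus FRC and -1.74 for BEC minus FRC, so no direction is given for Slc27a1.

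Among the organic anion carriers (SLCO), 7 of 15 members were well above background on any array and 3 were called. Slco2b1, which encodes a carrier of steroid sulphates, read 5.91 (FRC), 3.46 (LEC) and 5.65 (BEC), lower in LEC by 5.46-fold against FRC and 4.54-fold against BEC. Slco3a1 went the other way, at 3.30, 4.57 and 2.59, 3.93-fold higher in LEC than BEC and 2.41-fold higher than in FRC. Slco4a1, which encodes a carrier of thyroid hormones, was not well above background in FRC (-6.56) and was at -1.95 in LEC and -3.52 in BEC, at least 5.23-fold higher in LEC than FRC. Slco2a1, which encodes the prostaglandin carrier, was at 2.26, 2.75 and 4.05, 3.45-fold higher in BEC than FRC and 2.45-fold higher than in LEC, and its other probe gave log2 differences of 1.32 (BEC minus FRC) and -1.06 (LEC minus BEC). Slco1a4, which encodes an organic anion carrier of brain vessels and has close copies beside it, so that its signal is uncertain, was at -4.15 in FRC, not well above background in LEC (-5.02) and at -2.59 in BEC.

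Genes that act on what these carriers move were read from 5 lists, and 18 of their members passed 4-fold in at least 1 comparison. No share of all genes was taken for that count either. The lists were chosen with earlier results of these data known, so nothing is read from their shares. Single list genes were not followed through the 6 alternatives, so how far their folds depend on processing was not tested. In the list of hexose phosphorylation and glycolysis, 26 of 28 genes were compared, with 0 higher in LEC and 2 in FRC, and 1 higher in BEC and 3 in FRC, and none passed between the endothelia. The shares of all genes called in those 4 directions were 4.89%, 5.93%, 6.58% and 7.57%. Its median differences were 0.02 and 0.04 for LEC and BEC over FRC and -0.19 for LEC over BEC, beside the medians of all genes given above. Hk2, which encodes an inducible hexokinase, read -0.61 (FRC), -3.40 (LEC) and -4.29 (BEC), 6.91-fold and 12.9-fold higher in FRC. Pfkl, a phosphofructokinase gene, was at -1.33, 0.41 and 1.75, 8.44-fold higher in BEC than FRC. Pfkfb4, the gene of a regulator of that enzyme, was 6.06-fold higher in FRC than BEC. Eno2, an enolase gene, was 6.33-fold higher in FRC than LEC and at least 10.6-fold higher than in BEC.

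The lactate list had 16 of 18 genes compared, with 0 higher in LEC and 2 in FRC, 0 higher in BEC and 1 in FRC, and none between the endothelia, beside the same shares of all genes. In the same order its medians were -0.59, 0.10 and -0.39. Emb, which encodes embigin, the chaperone of MCT2, read 0.95 (FRC), -2.19 (LEC) and -1.18 (BEC), 8.82-fold and 4.37-fold higher in FRC. Bsg, which encodes basigin, the chaperone of MCT1 and MCT4, was at 2.60, 1.92 and 3.67, below 4-fold in each comparison. Ldhb, the lactate dehydrogenase subunit of oxidative tissues, was at 3.76, 0.95 and 1.76, 7.02-fold higher in FRC than LEC.

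The nucleoside list, with medians of -0.12, 0.10 and -0.08, had 2 of 18 higher in LEC and 2 in FRC, 4 higher in BEC and 2 in FRC, and 3 higher in BEC than in LEC against 0 in LEC. All genes were called at 4.89% and 5.93%, 6.58% and 7.57%, and 3.38% in those directions. Upp1, a uridine phosphorylase gene, was not well above background in FRC (-6.51) and was at -1.79 in LEC and 0.63 in BEC, so BEC was at least 31.3-fold above FRC. Entpd1, which encodes CD39, the ectoenzyme that breaks down extracellular ATP, was at -1.91, -1.90 and 2.75, 25.3-fold higher in BEC than FRC. Nt5e, which encodes CD73, the enzyme that makes adenosine outside the cell, was at -3.95, -4.27 (not well above background) and -1.19, 6.79-fold higher in BEC than FRC. These 2 genes and Slc28a2 were each highest on the BEC array. Cda, a cytidine deaminase gene, was at -2.28, 1.97 and 1.44, 19.1-fold higher in LEC than FRC. Entpd2, another ectonucleotidase gene, was at 5.97, 3.18 and 1.38, and Adora2b, an adenosine receptor gene, at 1.07, -3.79 and -2.80, and both were called higher in FRC than in each endothelium.

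The carnitine and fatty acid activation list had 13 of 14 genes compared, medians of 0.24, 0.15 and 0.08, and a single gene called, where 7.57% of all genes were called that way. This was Cpt1c, at 0.06 (FRC), -1.49 (LEC) and -3.20 (BEC) and 9.60-fold higher in FRC than BEC. The list of thyroid hormone and prostaglandin handling had 4 of 10 genes higher in FRC than in LEC and 5 of 10 higher in FRC than in BEC, none higher in an endothelium than in FRC, and medians of -1.10 and -2.34. Of all genes 5.93% and 7.57% were called for FRC in those comparisons. Between the endothelia 2 of 9 were higher in LEC, against 3.39% of all genes, and 0 in BEC, with a median of 0.81. Crym, which encodes the thyroid hormone-binding protein mu-crystallin, was at 2.26, -2.005 and -2.67, 19.2-fold and 30.3-fold higher in FRC. Thrb, a thyroid hormone receptor gene, was at -0.35, -2.77 and -5.07, the last not well above background, and Dio3, the gene of the deiodinase that inactivates the hormone, at -1.09, -2.08 and -6.51, again dim in BEC. Hpgd, which encodes the enzyme that breaks down prostaglandins after uptake, was at 2.20, -1.53 and -3.80, 13.2-fold and 63.7-fold higher in FRC, and thus in another order than Slco2a1. Ptgr1, the gene of the next enzyme of that breakdown, was 8.30-fold and 16.6-fold higher in FRC.

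**Figure D3:**
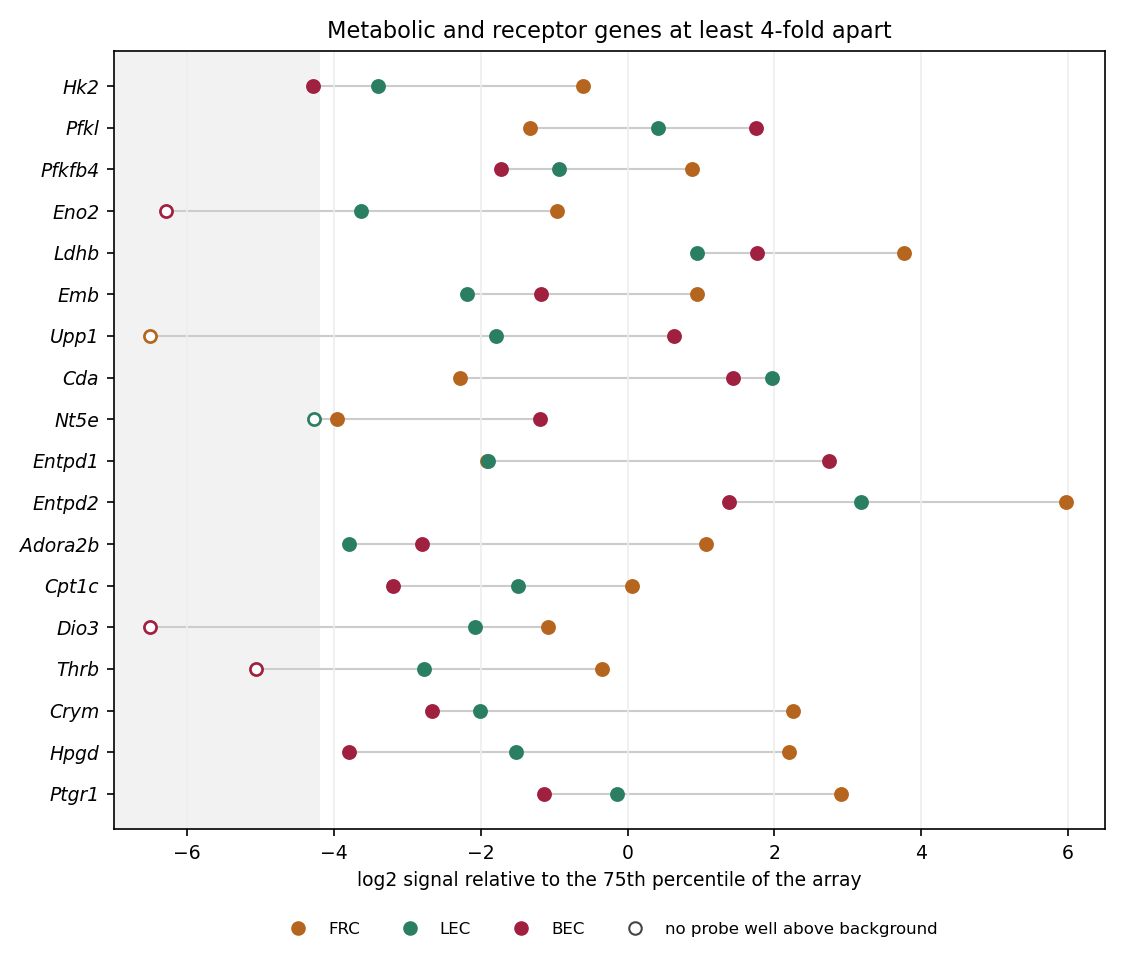
Levels of the 18 list genes that passed 4-fold in at least 1 comparison, on the same axis and with the same symbols as the plot of carrier levels, from glycolysis (top) to thyroid hormone and prostaglandin handling (bottom). FRC points lie to the right for Hk2, Ldhb, Emb, Entpd2, Adora2b, Crym, Hpgd and Ptgr1, and BEC points for Pfkl, Upp1, Nt5e and Entpd1, with Entpd1 at 2.75 in BEC.

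Sizes depended on the processing, and not on background correction alone. With spike-in slopes Slco2b1 went from -2.45 to -3.75 (log2) for LEC minus FRC. With the mean of probes Slc29a3 went from -3.76 to -2.53 for BEC minus FRC. All 28 calls kept their direction under each of 6 alternatives, and 8 of them passed 4-fold under all 6. The alternatives read the same 3 arrays, and a bound could not reverse where dim probes were filtered. A kept direction therefore says nothing about other samples. Under normexp background correction 9 of the 28 passed. These were Slc16a12 in LEC against both other arrays, Slc28a2 in BEC against both, Slco2b1 in LEC against both, and Slc22a3, Slc27a3 and Slc29a3 for BEC against FRC. Slc28a2 was 4.36 (log2) higher in BEC than in FRC by normexp, and 12 of the 17 called carriers were read by a single probe. Of the rest, the further probes of Slc2a3, Slc16a4, Slc16a7 and Slc16a10 were dim on every array. Only Slc29a3 had another probe well above background, in FRC.

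**Figure D4:**
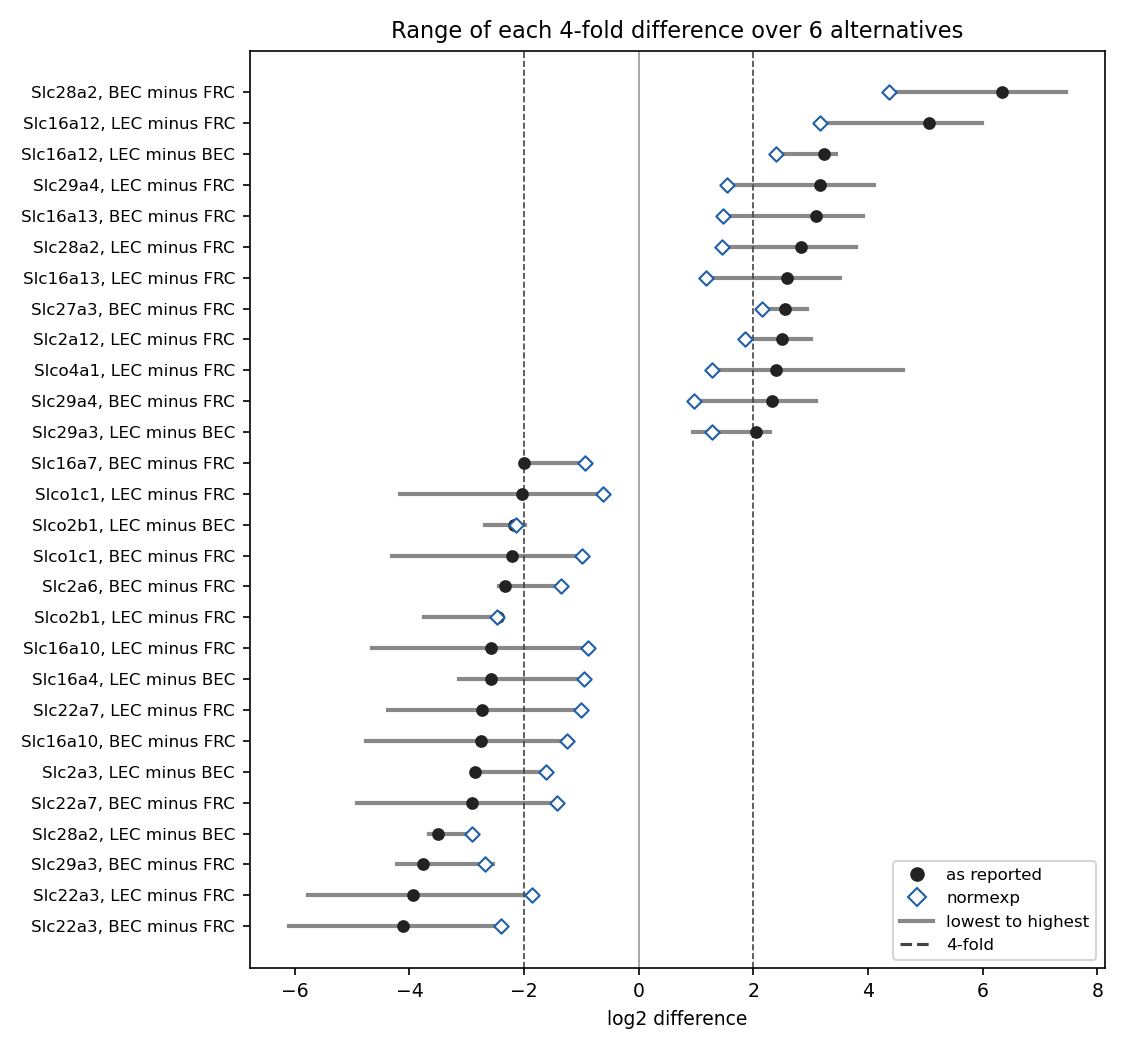
The 28 calls at 4-fold (rows, ordered by size), with the reported log2 difference (filled circle), the value under normexp background correction (open diamond) and the lowest to highest value over 6 alternatives (bar). No bar crosses 0, and the diamond lies nearer to 0 than the circle in 27 of 28 rows.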

How the data were processed

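Per the labels' protocols, CD45-negative cells from collagenase-digested nodes were sorted by gp38 and CD31 and 30 to 50 ng of total RNA was amplified in 1 round and labelled with a fluorescent dye. The deposited scanner files hold intensity values. The submitters' processing notes name Agilent Feature Extraction 10.7.3.1. Background was subtracted and spatial trends removed from the processed intensity per the file headers, without scaling between arrays. Its 75th percentile was 387 (FRC), 268 (LEC) and 361 (BEC), no spot was saturated, and the spike-in slopes were 0.821, 1.00 and 0.919. The deposited series matrix holds linear, quantile-normalized intensity by the authors with a floor of 15 and a median of 40.2 per array. It correlated with the scanner values at 0.99998 on each array, across the probes that were well above background there and above that floor.

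Outlier spots were left out (18 probes lost, 41156 kept) and replicate spots averaged on the log2 scale. RefSeq accessions (GRCm38.p6, names only) matched 81 of the 84 names, and the array's Slc22a9 is now Slc22a19. Values are named for called carriers, for the 2 probes per family of highest mean signal among genes well above background on all 3 arrays (a rule of selection only), and for list genes. Some genes that this rule names are not reported here. The members and gene lists were chosen with earlier results of these data known. The comparison step was tested on simulated data. Tools were Python 3.11.15, pandas 2.3.3 and limma 3.58.1 in R 4.3.3. Alternatives were normexp (offset 50), the authors' matrix, median scaling, spike-in slopes, no filter on dim probes and the mean of probes.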

Additional observations from a re-analysis of the deposited data

How the results depend on the processing

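No paired analysis was possible because each population had 1 array and no result comes from a test. For the same reason no array could be left out. With normexp, LEC minus FRC had 1 carrier higher in LEC and 1 in FRC, BEC minus FRC had 2 in BEC and 2 in FRC with a median of -0.0566, and LEC minus BEC had 1 in LEC and 2 in BEC with a median of 0.11. Over all genes normexp gave 550 and 636 calls for LEC minus FRC against 902 and 1094, 740 and 854 for BEC minus FRC against 1240 and 1426, and 287 and 324 for LEC minus BEC against 622 and 620. With spike-in slopes, 9 carriers and 1680 of all genes were higher in BEC than in FRC. In that setting the LEC minus BEC median of all carriers compared was 0.19. That setting called 5 carriers and 772 of all genes higher in LEC than in BEC. For LEC over FRC it called 1380 of all genes. Without a filter on dim probes, the LEC minus FRC median was 0.10. Then 7 carriers and 1657 of all genes were higher in BEC than in FRC. The BEC minus FRC median of all carriers compared was -0.0204. The LEC minus BEC median was 0.12, and 1019 of all genes were higher in LEC than in BEC. With the mean of probes, 1 carrier and 574 of all genes were higher in LEC than in BEC. The cause of these shifts was not tested. The other counts stayed within 1.5-fold, and the carriers' other medians moved by less than the spot SD. The medians of all genes also moved, without the filter to 0.11 for LEC and -0.0022 for BEC, each minus FRC, and 0.10 between LEC and BEC, and with normexp to 0.10 for LEC minus FRC and 0.0 between LEC and BEC. The carriers' medians lie so near 0 that their sign has no weight.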

Other observations

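Several probes were well above background on all 3 arrays for 10 carriers. Of their 30 differences, 24 had the same sign in all such probes, with a median spread between the probes of 0.45 on the log2 scale. The widest spread, 1.98, was for Slc27a1 in BEC minus FRC, where 1 probe read 0.23 and the other -1.74. Slc22a23 had a spread of 1.24 in LEC minus BEC, and the 3 Slc16a1 probes a spread of 0.92 in BEC minus FRC.

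Some carriers lay close to the 4-fold line without reaching it, and counts of calls pass over them. Slc22a4 at 1.97 and Slco3a1 at 1.97 for LEC minus BEC, and Slc22a4 at -1.93 and Slc5a3 at -1.92 for BEC minus FRC, were nearest below it. Slc16a7 at -2.01 for BEC minus FRC, Slco1c1 at -2.03 for LEC minus FRC, the latter a bound, and Slc29a3 at 2.04 for LEC minus BEC were nearest above it.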
